A study of Mus musculus with 3 samples.

Results

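Slc2a2, G6pc2, Ucn3, Slc30a8 and Trpm5 are 5 of the 32285 genes counted in the islet cells of mouse pancreas by single-cell RNA sequencing. They were taken by gene symbol as genes of glucose sensing and of the mature beta cell, and all 5 passed the filter on low values in beta cells. Their UMIs (unique molecular identifiers, each standing for 1 captured RNA molecule) were summed by cell class and library. The series holds 3 libraries, 1 per genotype: WT, ASF-KO and SC35-KO mice, all 9 months old, from which islets were freed with collagenase, picked under a microscope, split into single cells with trypsin and made into 10x Genomics 3' v3 libraries. ASF and SC35 are older names of the splicing factors Srsf1 and Srsf2. The labels do not say how or in which cells either gene was removed, or how many mice were pooled. With 1 library per genotype there is no replicate check, so no test was made. Each interval is at 95% and covers the error of counting alone, and a difference between libraries cannot be told apart from a difference between mice or preparations.

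A beta cell senses glucose by taking it up and metabolising it. In mouse, Slc2a2 encodes GLUT2, the glucose transporter of the beta-cell membrane, and the sugar is then phosphorylated; G6pc2 encodes the islet glucose-6-phosphatase, which returns glucose-6-phosphate to glucose. The rise in ATP closes the KATP channel (Kcnj11 and Abcc8), the membrane depolarises, calcium channels such as Cacna1d open and insulin granules are released; Trpm5, a cation channel opened by calcium and best known from taste cells, adds to the depolarisation. Slc30a8 encodes ZnT8, which loads zinc into the granules where insulin is stored, and Ucn3 encodes urocortin 3, a peptide that mature mouse beta cells release with insulin and that acts on delta cells.

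The start regions of these genes are shown because the genes share a cell type and, as given below, were all at a lower level in both KO libraries. RefSeq windows (GRCm38.p6) were found for 4 of the 5 genes, and the 250 bases before the start are printed 5′ to 3′ on the strand of the gene. For G6pc2 the window of the downstream start is shown, 22 bases from the nearest coding transcript in the GENCODE annotation; the other listed start lies 8898 bases from one. Capitals mark matches, on either strand, to 5 motifs of beta-cell factors: the A-box CTAATG (Pdx1), the MARE core TGCTGAC (Mafa), the E-box CATCTG (Neurod1), the forkhead motif TGTTTAC (Foxa2) and the HNF1 core GTTAAT.
G6pc2, chr2:69219699-69219948, plus strand: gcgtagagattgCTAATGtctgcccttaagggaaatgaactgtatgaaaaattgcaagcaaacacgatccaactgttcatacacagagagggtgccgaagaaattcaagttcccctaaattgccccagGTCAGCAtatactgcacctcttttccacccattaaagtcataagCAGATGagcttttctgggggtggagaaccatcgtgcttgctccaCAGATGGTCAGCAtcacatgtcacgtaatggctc
Ucn3, chr13:3945350-3945599, minus strand: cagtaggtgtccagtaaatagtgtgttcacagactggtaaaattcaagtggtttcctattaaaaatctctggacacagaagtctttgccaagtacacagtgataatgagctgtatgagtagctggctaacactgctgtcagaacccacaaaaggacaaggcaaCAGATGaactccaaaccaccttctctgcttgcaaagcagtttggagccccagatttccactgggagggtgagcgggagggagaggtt
Slc2a2, chr3:28697653-28697902, plus strand: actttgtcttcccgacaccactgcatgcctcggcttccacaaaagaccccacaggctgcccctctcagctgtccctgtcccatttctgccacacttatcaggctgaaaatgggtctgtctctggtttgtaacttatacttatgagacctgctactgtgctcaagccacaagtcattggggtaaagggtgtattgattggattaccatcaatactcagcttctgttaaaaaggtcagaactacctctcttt
Trpm5, chr7:143094643-143094892, minus strand: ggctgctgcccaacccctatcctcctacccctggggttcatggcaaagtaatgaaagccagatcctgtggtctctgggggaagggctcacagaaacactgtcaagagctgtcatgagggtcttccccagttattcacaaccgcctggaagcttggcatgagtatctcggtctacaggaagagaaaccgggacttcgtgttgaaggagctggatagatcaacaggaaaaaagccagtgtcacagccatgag
The G6pc2 window held 5 matches: an A-box 238 bases before the start, MARE cores 122 and 28 bases before it, and E-boxes 78 and 34 bases before it. The E-box at 34 runs directly into the MARE core at 28, with no overlap. Of 32851 RefSeq windows of this length, 6.36% held the A-box, 3.81% the MARE core, 14.4% the E-box, 3.17% the forkhead motif and 6.43% the HNF1 core. The Ucn3 window held 1 E-box, 87 bases before the start. The windows of Slc2a2, Trpm5 and the upstream G6pc2 start held none of these letters.

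On GRCm38 all 5 genes are protein-coding. Slc2a2 (ENSMUSG00000027690) lies on chromosome 3 from 28697903 to 28731359 on the plus strand, and G6pc2 (ENSMUSG00000005232) on chromosome 2 from 69211073 to 69227841 on the plus strand. Ucn3 (ENSMUSG00000044988) lies on chromosome 13 from 3940688 to 3945349 on the minus strand, and Slc30a8 (ENSMUSG00000022315) on chromosome 15 from 52295553 to 52335798 on the plus strand. Trpm5 (ENSMUSG00000009246) lies on chromosome 7 from 143069153 to 143094642 on the minus strand. Slc2a2 overlaps 1700112D23Rik and Trpm5 overlaps Tssc4, each on the opposite strand. The strand setting of the counting is not given in the sources used here, so UMIs at those overlaps are uncertain.

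The libraries held 154099078 (WT), 148320213 (ASF-KO) and 150116204 (SC35-KO) UMIs, and 8959, 7123 and 10783 cells passed the filters. Beta-gated cells, in which Ins1 and Ins2 took at least 25% of UMIs and Gcg, Sst and Ppy each under 2%, numbered 4561, 3797 and 4924, with medians of 22336, 26585 and 17351.5 UMIs. Insulin took 53.8% of their UMIs in the WT library, 64.0% in the ASF-KO library and 63.5% in the SC35-KO library. The beta factors Mafa, Nkx6-1 and Pdx1, which the gate did not use, stood at 237, 211 and 63.6 CPM (UMIs of the gene per 1000000 UMIs of the class) in WT beta-gated cells and at 24.4, 22.9 and 6.82 CPM in WT endothelial-gated cells. Neither targeted gene was lower than WT by as much as 5% in beta-gated cells of its own library: Srsf1 stood at 38.4 (WT), 36.9 (ASF-KO) and 40.2 (SC35-KO) CPM, and Srsf2 at 27.4, 53.8 and 26.4 CPM. A 3' count that lies outside the deleted part does not check a deletion, so the KO libraries are named here by their labels. Between any pair of libraries 11 to 28 cell barcodes were shared, 2 to 6 of them in beta-gated cells of both. UMIs of 8 exocrine markers came to 379, 271 and 46.1 CPM in beta-gated cells. Of the summed markers of other types in beta-gated cells, those of T cells, pericytes, fibroblasts and dendritic cells were each under 2 CPM in every library, endothelial ones between 5.67 and 14.8 CPM, glial ones between 6.78 and 9.85 CPM, B or plasma ones 41.5, 11.6 and 16.8 CPM, macrophage ones 34.6, 33.4 and 47.1 CPM and ductal ones 92.8, 121 and 98.4 CPM. Those of alpha cells came to 1574, 1603 and 1706 CPM, of gamma cells to 1409.5, 949 and 1321 CPM and of delta cells to 334, 243 and 379.5 CPM. The part of these marker levels, exocrine ones included, in the results was not tested.

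Slc2a2, the glucose transporter, stood at 372 CPM (369 to 376) in beta-gated cells of the WT library, 149 CPM (147 to 152) in the ASF-KO library and 193 CPM (190 to 195) in the SC35-KO library. It was therefore highest in WT and lowest in the ASF-KO library, and no intervals overlapped. G6pc2, the glucose-6-phosphatase, stood at 533 CPM (529 to 538) in WT, 288 CPM (285 to 292) in the ASF-KO library and 296 CPM (292 to 299) in the SC35-KO library. The KO libraries differed from each other by far less than either did from WT. Ucn3, the peptide, stood at 316 CPM (313 to 319) in WT, 172 CPM (170 to 175) in the ASF-KO library and 159 CPM (157 to 162) in the SC35-KO library. Of the 5 genes it was the only one lower in the SC35-KO than in the ASF-KO library. Slc30a8, the zinc transporter, stood at 467 CPM (463 to 471) in WT, 263 CPM (260 to 266) in the ASF-KO library and 271 CPM (268 to 275) in the SC35-KO library. Trpm5, the cation channel, stood at 81.9 CPM (80.2 to 83.7) in WT, 40.0 CPM (38.8 to 41.2) in the ASF-KO library and 59.1 CPM (57.5 to 60.7) in the SC35-KO library. Together the genes took 1770 CPM of the beta-gated UMIs in WT, 913 in the ASF-KO library and 978 in the SC35-KO library.

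**Figure D1:**
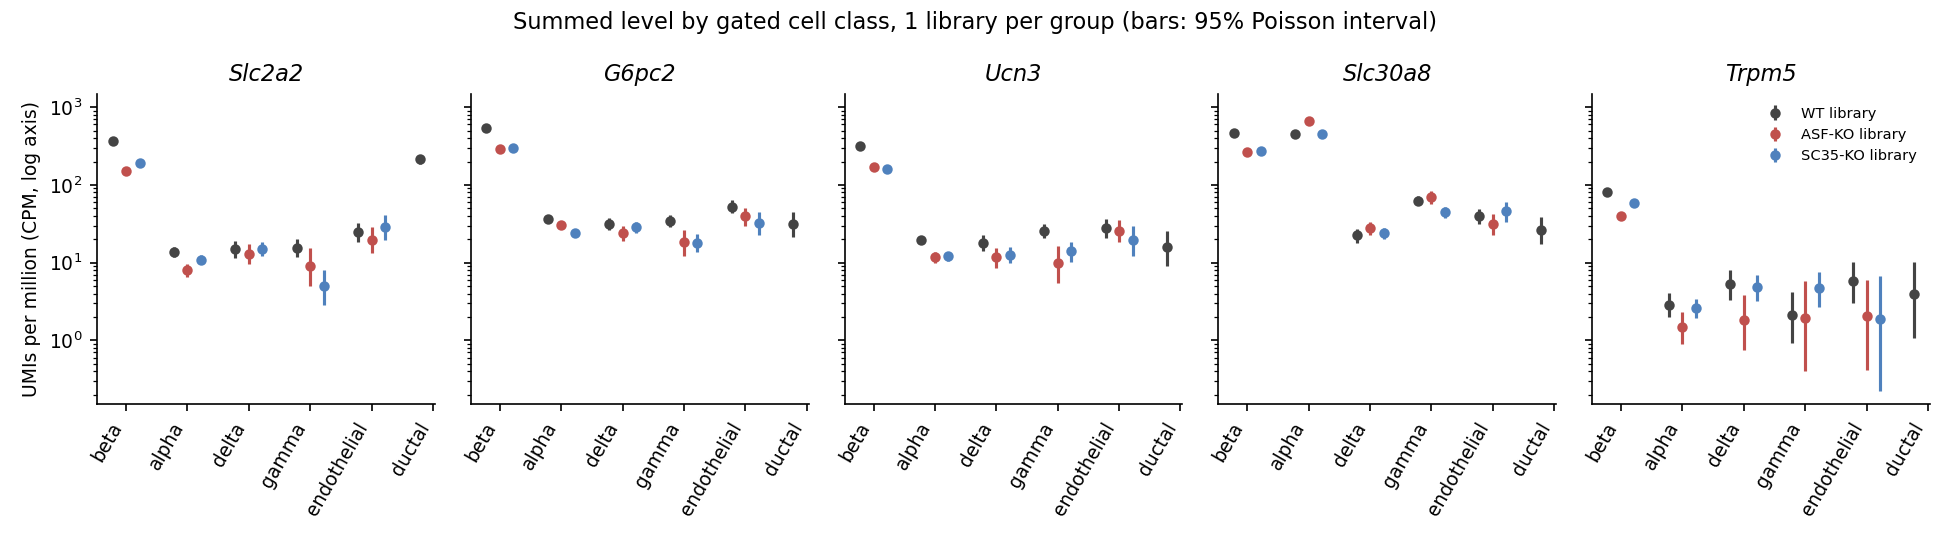
Summed level of each gene (CPM, log axis) in 6 gated cell classes, with points for the WT, ASF-KO and SC35-KO libraries and bars for the 95% Poisson interval; ductal-gated cells reached 50 only in WT. All 5 genes were high in beta-gated cells and highest there in WT, while Slc30a8 was also high in alpha-gated cells and Slc2a2 in WT ductal-gated cells.

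Outside beta cells, droplets hold some free islet RNA, so each level was read against endothelial-gated cells (640, 418 and 379 cells, with medians of 2963, 3358.5 and 2461 UMIs), which should lack these genes. In WT, Slc2a2 stood at 24.8 CPM (18.5 to 32.7) in endothelial-gated cells, 15.4 in gamma, 15.04 in delta and 13.8 in alpha cells. These levels are close to one another: the gamma, delta and alpha intervals overlapped. Ucn3 stood at 27.8 CPM in WT endothelial-gated cells, 25.5 in gamma, 19.6 in alpha and 18.1 in delta cells, and G6pc2 at 52.6, 34.5, 36.9 and 31.8 CPM in the same order. Trpm5 was between 2.12 and 5.84 CPM in these 4 WT classes. For these genes, then, alpha-, delta- and gamma-gated cells did not stand above the endothelial CPM level in the WT library. In the same classes of the KO libraries Slc2a2 ran from 4.97 to 28.8 CPM, G6pc2 from 18.1 to 39.5, Ucn3 from 9.83 to 25.9 and Trpm5 from 1.49 to 4.84. In the T, B or plasma, macrophage and pericyte gates of WT, Slc2a2 ran from 17.6 to 47.9 CPM, G6pc2 from 23.8 to 60.98, Ucn3 from 11 to 30.5 and Trpm5 from 3.67 to 7.95. All of these CPM levels lie far below the beta level of their library. Per 10000 insulin UMIs, alpha-gated cells of the ASF-KO library held 11.4 G6pc2 UMIs (10.2 to 12.5) against 6.96 (5.28 to 8.99) in endothelial-gated cells. In the SC35-KO library these were 10.4 (9.51 to 11.4) and 6.69 (4.66 to 9.30). On that scale alpha G6pc2 thus stood above the endothelial level in both KO libraries. In WT its intervals overlapped, as did those of Slc2a2, Ucn3 and Trpm5 in alpha-gated cells of each library.

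Slc30a8 differed in this respect. In alpha-gated cells it stood at 452 CPM (440 to 464) in WT, 666 CPM (652 to 680) in the ASF-KO library and 452 CPM (442 to 461) in the SC35-KO library, against 39.4, 31.3 and 45.6 CPM in endothelial-gated cells. At least 1 UMI was found in 93.9%, 97.9% and 91.3% of alpha-gated cells. Set against insulin as a tracer of free beta-cell RNA, alpha-gated cells of the WT library held 298 Slc30a8 UMIs per 10000 insulin UMIs, beta-gated cells 8.69 and endothelial-gated cells 15.99. In CPM the alpha level was thus close to the beta level in WT, where their intervals overlapped, and above it in both KO libraries. Insulin takes much of the beta total, so this closeness depends on the scale. WT cells were also thinned to 2000 UMIs without hormone and mitochondrial genes. Slc30a8 was then found in 68.6% of alpha-gated and 87.7% of beta-gated cells, with means of 1.26 and 2.41 UMIs. Gamma-gated cells stood at 62.9 CPM (55.2 to 71.5), 70.1 (57.5 to 84.7) and 44.4 (37.7 to 52.1). These lay above the endothelial CPM interval in WT and the ASF-KO library but not in the SC35-KO library. Per 10000 insulin UMIs, SC35-KO gamma-gated cells held 17.6 (14.9 to 20.6) against 9.36 (6.93 to 12.4) in endothelial-gated cells. The SC35-KO result thus depends on the scale. Delta-gated cells, at 22.4, 27.8 and 23.9 CPM, were not above the endothelial CPM interval in any library. Pericyte-gated cells of WT (91 cells) stood at 95.7 CPM (59.99 to 145).

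Slc2a2 was also high in ductal-gated cells of the WT library. The 76 ductal-gated cells of the WT library held 215 CPM (187 to 245), and 53.9% of them (42.1% to 65.5%, exact binomial) had at least 1 Slc2a2 UMI. They held 112 Slc2a2 UMIs per 10000 insulin UMIs (97.3 to 128), against 6.93 in beta-gated and 10.1 in endothelial-gated cells of that library, whereas their Ucn3, at 8.23 per 10000, was near the endothelial 11.3. These cells had the duct genes Krt19 at 700.3 CPM and Sox9 at 567 CPM. Both are among the markers that the ductal gate used, so their levels do not check the class. The acinar enzyme Ctrb1, which the gate did not use, stood at 14219 CPM. Whether the Slc2a2 RNA of these droplets came from duct or acinar cells was not tested. The KO libraries had fewer than 50 ductal-gated cells each, so no such level is given for them.

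Some droplets were high in insulin and a second hormone. The 115 WT cells high in insulin and Gcg held 230.2 CPM of Slc2a2, 335 of G6pc2 and 244 of Ucn3, between the beta and alpha levels, and 408 of Slc30a8. They held 5.43 Slc2a2, 7.90 G6pc2 and 5.77 Ucn3 UMIs per 10000 insulin UMIs, near or below the 6.93, 9.92 and 5.88 of beta-gated cells. Doublets and cells with both hormones cannot be told apart in these droplets.

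Each KO library was then set against WT in beta-gated cells. In CPM, Slc2a2 was at 0.401 of WT in the ASF-KO library (0.393 to 0.408), Trpm5 at 0.488 (0.470 to 0.507), G6pc2 at 0.541 (0.533 to 0.549), Ucn3 at 0.545 (0.535 to 0.555) and Slc30a8 at 0.564 (0.556 to 0.572). In the SC35-KO library Ucn3 was at 0.504 (0.494 to 0.514), Slc2a2 at 0.517 (0.508 to 0.526), G6pc2 at 0.554 (0.546 to 0.562), Slc30a8 at 0.581 (0.572 to 0.590) and Trpm5 at 0.721 (0.697 to 0.747). Where insulin takes a larger share of UMIs the other genes take a smaller one, and the median measured gene (at least 10 CPM in 1 of the 2 libraries compared) stood at 0.738 of WT in the ASF-KO library and 0.739 in the SC35-KO library. Ratios were therefore also taken relative to that median gene, and the next values are log2 differences on this scale.

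Relative to the median gene, the ASF-KO library was lower by 1.5-fold or more for 2 of the 5 genes, Slc2a2 at -0.88 (-0.91 to -0.85) and Trpm5 at -0.60 (-0.65 to -0.54). Of 6566 measured genes, 8.19% were lower and 9.17% higher by that fold in this comparison. G6pc2 at -0.45, Ucn3 at -0.44 and Slc30a8 at -0.39 were on the lower side without reaching it. Trpm5 lay just inside the 1.5-fold line, with a ratio of 0.661 relative to the median gene, and G6pc2 just outside, at 0.733. Trpm5 no longer passed it, at -0.51, in cells without an Aldh1a3 UMI, nor in 2 other settings. With plain CPM 5 of the 5 genes passed it. The median gene itself then stood at 0.738 of WT, and the share of all genes past the line was not counted. All 5 genes were below the median gene, with a median of -0.45; 2.83% of measured genes had a lower value than Slc2a2 and 15.9% a lower one than Slc30a8. In the SC35-KO library none of the 5 genes was lower or higher by 1.5-fold, where 2.6% of 6532 measured genes were lower and 3.58% higher. With plain CPM 4 of the 5 were lower by that fold. The median gene itself then stood at 0.739 of WT, and the share of all genes was not counted. Ucn3 at -0.55 (-0.58 to -0.52) and Slc2a2 at -0.51 (-0.54 to -0.49) came nearest, then G6pc2 at -0.41 and Slc30a8 at -0.35. Trpm5 at -0.03 (-0.08 to 0.02) could not be told from the median gene by its counting interval. The spread over all genes was narrower in this comparison, and only 2.94% of genes had a lower value than Ucn3 and 6.25% a lower one than G6pc2. Both comparisons share the WT library, so they are not independent of each other.

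**Figure D2:**
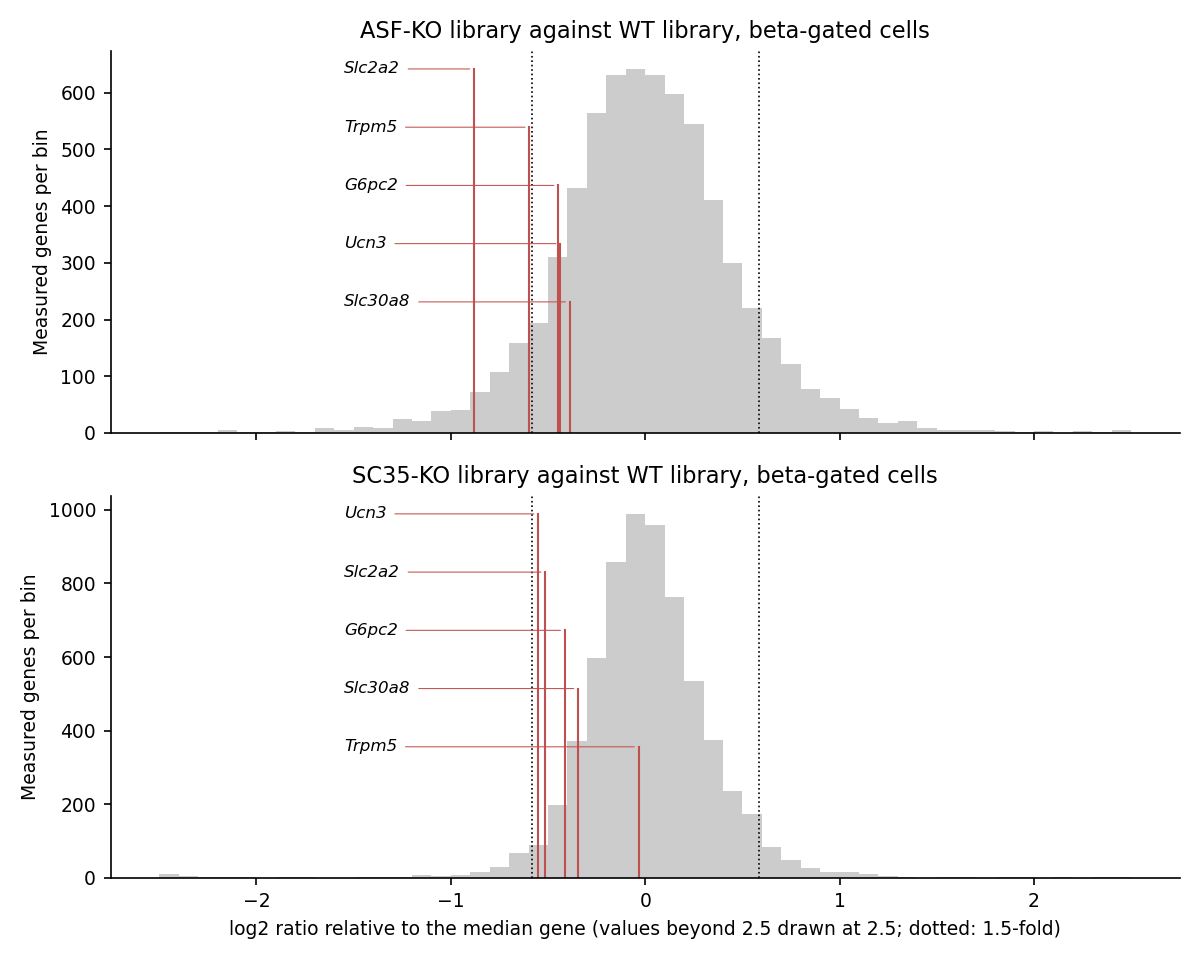
Number of measured genes (vertical axis) by log2 ratio to WT relative to the median gene (horizontal axis) in beta-gated cells of the ASF-KO library (top) and the SC35-KO library (bottom), with red lines for the 5 genes and dotted lines at 1.5-fold. Slc2a2 at -0.88 and Trpm5 at -0.60 lie past the line in the top panel, and no gene does in the bottom panel, where Trpm5 is at -0.03.

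The KO libraries were also compared with each other. Trpm5 was 1.48 times as high in the SC35-KO as in the ASF-KO library (1.42 to 1.54) and Slc2a2 1.29 times (1.26 to 1.32), while Slc30a8 at 1.03, G6pc2 at 1.02 and Ucn3 at 0.925 were within 10% of equal. None passed 1.5-fold relative to the median gene, though Trpm5 at 1.49 lay just under it; 7.65% of 5765 measured genes were lower and 7.25% higher in this comparison. Among the 5 genes, Trpm5 and Slc2a2 were thus those by which the KO libraries differed most.

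The lower levels were also looked at by depth of the cell. On a scale that leaves hormone and mitochondrial genes out of the total (non-hormone CPM), Slc2a2 in the ASF-KO library was at 0.474 of WT in the shallowest of 4 depth groups of beta-gated cells (1000 to 10000 UMIs), 0.554 and 0.513 in the next groups and 0.530 in the deepest (30000 or more). In the SC35-KO library the same ratios, from shallow to deep, were 0.793, 0.815, 0.712 and 0.637, nearest to WT in the 2 shallower groups. Ucn3 in the SC35-KO library was at 0.564, 0.776, 0.691 and 0.649, and Trpm5 at 0.737, 1.04, 1.05 and 1.05. For Trpm5 the shallowest cells therefore lay below WT while the 3 deeper groups had intervals that included WT. The median gene in these groups was within 5% of WT.

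The share of beta-gated cells with a UMI was compared after each cell was thinned at random to 2000 UMIs, which left out 38, 30 and 20 shallower cells. For Slc2a2 it was 48.4% in WT, 25.2% in the ASF-KO library and 29.9% in the SC35-KO library, and unthinned it was 94.3%, 87.4% and 84.2%. For G6pc2 it was 60.2%, 42.0% and 41.6% (unthinned 97.3%, 96.8% and 93.3%), and for Slc30a8 59.7%, 40.3% and 41.2% (unthinned 97.7%, 97.6% and 94.7%). Most beta-gated cells thus held these RNAs at full depth, and the libraries lay further apart at matched depth. For Ucn3 the matched share was 42.9%, 28.1% and 27.6% (unthinned 95.4%, 91.7% and 84.5%), and for Trpm5 13.8%, 7.62% and 9.71% (unthinned 70.8%, 56.2% and 53.4%). Endothelial-gated cells thinned the same way gave 5.84%, 3.22% and 4.37% for Slc2a2, 11.7%, 8.58% and 5.56% for G6pc2, 5.84%, 4.56% and 3.18% for Ucn3, and at most 7.51% for Slc30a8 and 1.51% for Trpm5. Every beta share stood above the endothelial share of its library.

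Insulin filled more of each thinned beta cell in the KO libraries, so cells were also thinned to 2000 UMIs after hormone and mitochondrial genes were removed. Slc2a2 was then found in 77.2% of WT, 57.1% of ASF-KO and 64.8% of SC35-KO beta-gated cells, and Ucn3 in 74.9%, 64.9% and 63.4%. G6pc2 was found in 88.7%, 80.7% and 81.4%, and Slc30a8 in 87.7%, 80.9% and 81.3%. Trpm5 was found in 33.4%, 22.7% and 32.0%. For Trpm5 the WT and SC35-KO shares thus lay close together once hormone genes were left out, while the ASF-KO share was lower.

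**Figure D3:**
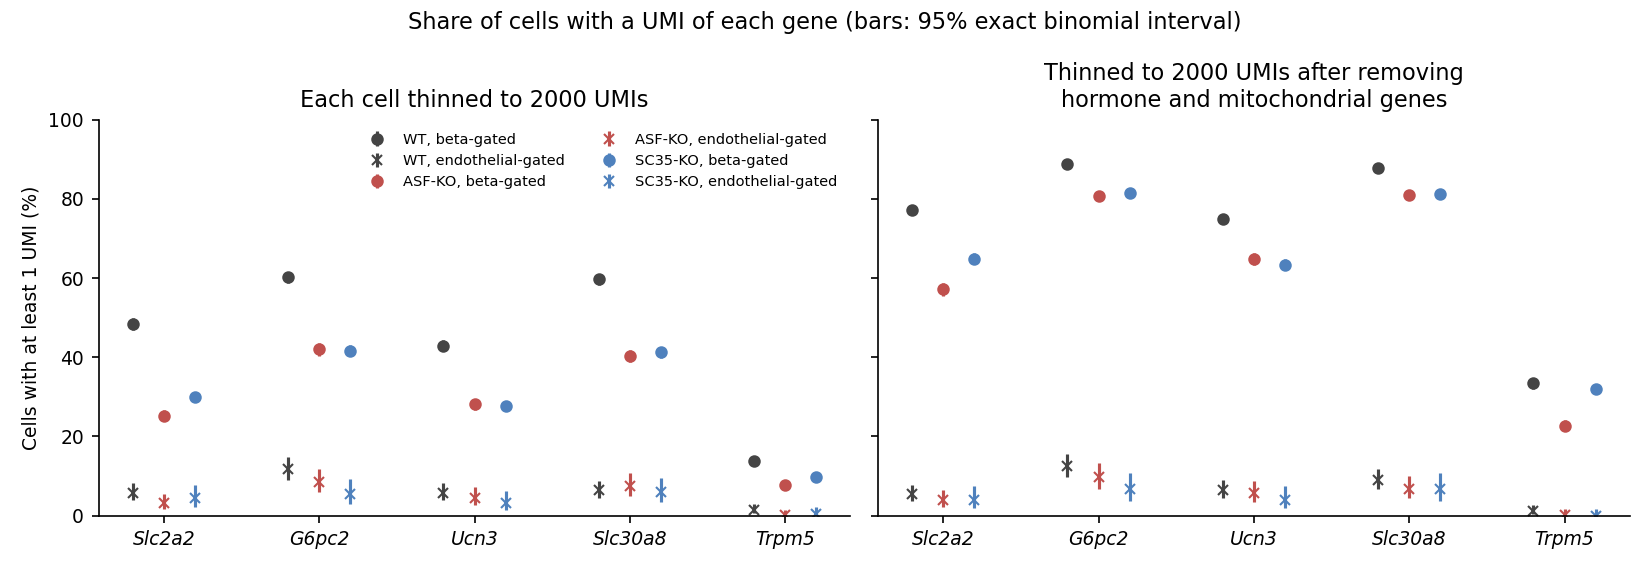
Percent of cells with at least 1 UMI of each gene after thinning to 2000 UMIs (left) or to 2000 UMIs without hormone and mitochondrial genes (right), for beta-gated cells (circles) and endothelial-gated cells (crosses) of the 3 libraries, with 95% exact binomial intervals. WT circles are highest for every gene, and Slc2a2 shows the widest gap, 48.4% against 25.2% in the ASF-KO library on the left.

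In single beta-gated cells thinned to 10000 UMIs (4088, 3634 and 4123 cells), the median cell held 3 Slc2a2 UMIs in WT, 1 in the ASF-KO library and 2 in the SC35-KO library. The interquartile range was 2 to 5 in WT, 0 to 2 in the ASF-KO library and 1 to 3 in the SC35-KO library. For G6pc2 the median was 5 in WT and 3 in each KO library, for Ucn3 3, 1 and 1, and for Slc30a8 4, 2 and 2. The Trpm5 median was 0 in each library, with a UMI in 49.7%, 31.2% and 40.1% of cells. At this depth all 5 genes were found together in 40.7% of WT cells (39.2% to 42.2%), 15.96% of ASF-KO cells (14.8% to 17.2%) and 20.8% of SC35-KO cells (19.6% to 22.1%). Cells with at most 1 of the genes were rare in WT, where 8 cells had 1 and 0 of 4088 had none, which allows a share of up to 0.0734% (3 cells of the total; the exact 95% upper limit is 0.0902%). In the ASF-KO library 100 cells had 1 and 11 had none, and in the SC35-KO library 74 had 1 and 7 had none. At this depth, which leaves out shallower cells, those with none of the 5 genes made up at most 0.303% in any library. The share depends on depth: thinned to 2000 UMIs, 5.81% of WT, 18.4% of ASF-KO and 16.9% of SC35-KO beta-gated cells had none.

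**Figure D4:**
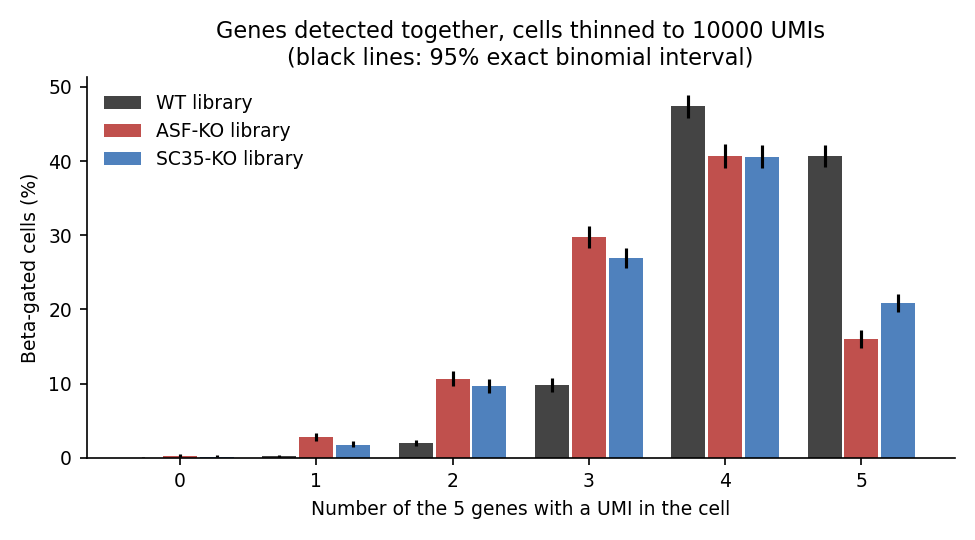
Percent of beta-gated cells (vertical axis) by how many of the 5 genes had a UMI after thinning to 10000 UMIs (horizontal axis), for the WT, ASF-KO and SC35-KO libraries, with 95% exact binomial intervals. All 5 genes were found in 40.7% of WT cells and in 15.96% and 20.8% of the KO cells, whose shares with 2 or 3 genes are larger.

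Across single cells the genes varied together only weakly. At 10000 UMIs the 10 pairwise Pearson correlations of UMI counts had a median of 0.117 in WT, 0.0945 in the ASF-KO library and 0.0955 in the SC35-KO library, and the highest was 0.239, between Slc2a2 and G6pc2 in WT. The points share library, depth and sparse counts, so these are descriptions only.

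Within each library, beta-gated cells of 10000 to 30000 UMIs were ranked by insulin share and cut into 3 groups of equal size, and the top group was set against the bottom group in non-hormone CPM. Trpm5 was 1.44 times as high in the insulin-rich group in WT (1.35 to 1.53). It was 1.54 times as high in the ASF-KO library (1.39 to 1.72) and 2.15 times in the SC35-KO library (1.99 to 2.32). Slc2a2 was 1.34, 1.29 and 1.52 times as high and Slc30a8 1.30, 1.27 and 1.37 times. The median gene was at 0.939, 0.981 and 0.963, so these 3 genes were among the genes that moved most with insulin: at least 99.1% of measured genes had a lower ratio than Trpm5 in each library. G6pc2 was 1.17, 1.24 and 1.21 times as high. Ucn3, at 1.19, 1.03 and 1.15, had the lowest ratio of the 5 genes in both KO libraries. In the ASF-KO library its interval (0.982 to 1.09) included 1. The insulin-rich group was also deeper, with medians of 23610, 25335 and 20426 UMIs against 19820, 20919 and 16092.5, and the part of depth in these ratios was not tested.

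The same cells were split by Aldh1a3, an aldehyde dehydrogenase known to mark beta cells that lose maturity, which stood at 2.15 CPM in WT, 18.7 CPM in the ASF-KO library and 16.5 CPM in the SC35-KO library. At least 1 Aldh1a3 UMI was found in 110 WT, 491 ASF-KO and 712 SC35-KO cells of this depth range. Cells with it had Trpm5 at 0.615 (WT), 0.599 (ASF-KO) and 0.799 (SC35-KO) of the level in cells without it, and Slc2a2 at 0.671, 0.789 and 0.918. Slc30a8 was at 0.740, 0.794 and 0.867, G6pc2 at 0.800, 0.870 and 0.919, and Ucn3 at 0.848, 0.882 and 1.04. The median gene was at 0.998, 0.993 and 0.999. Trpm5 was furthest below it in all 3 libraries, and Ucn3 nearest to it or above. In cells with no Aldh1a3 UMI found, Slc2a2 stood at 984 non-hormone CPM in WT, 539.9 in the ASF-KO library and 708 in the SC35-KO library. A cell with no UMI found may still hold Aldh1a3 RNA at these levels. The part of Aldh1a3 in the differences between libraries was not tested.

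Metallothioneins Mt1 and Mt2, small zinc-binding proteins, gave a different order. The top of 3 equal groups by their share was set against the bottom one. The Ucn3 ratio was 0.954 in WT, 1.33 (1.26 to 1.39) in the ASF-KO library and 1.25 (1.20 to 1.31) in the SC35-KO library. The other 4 genes had ratios from 0.745 to 1.11, with Trpm5 at 0.912, 0.866 and 0.745. In both KO libraries Ucn3 was thus higher in cells with more metallothionein RNA, whereas in WT it was near the median gene at 0.944.

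**Figure D5:**
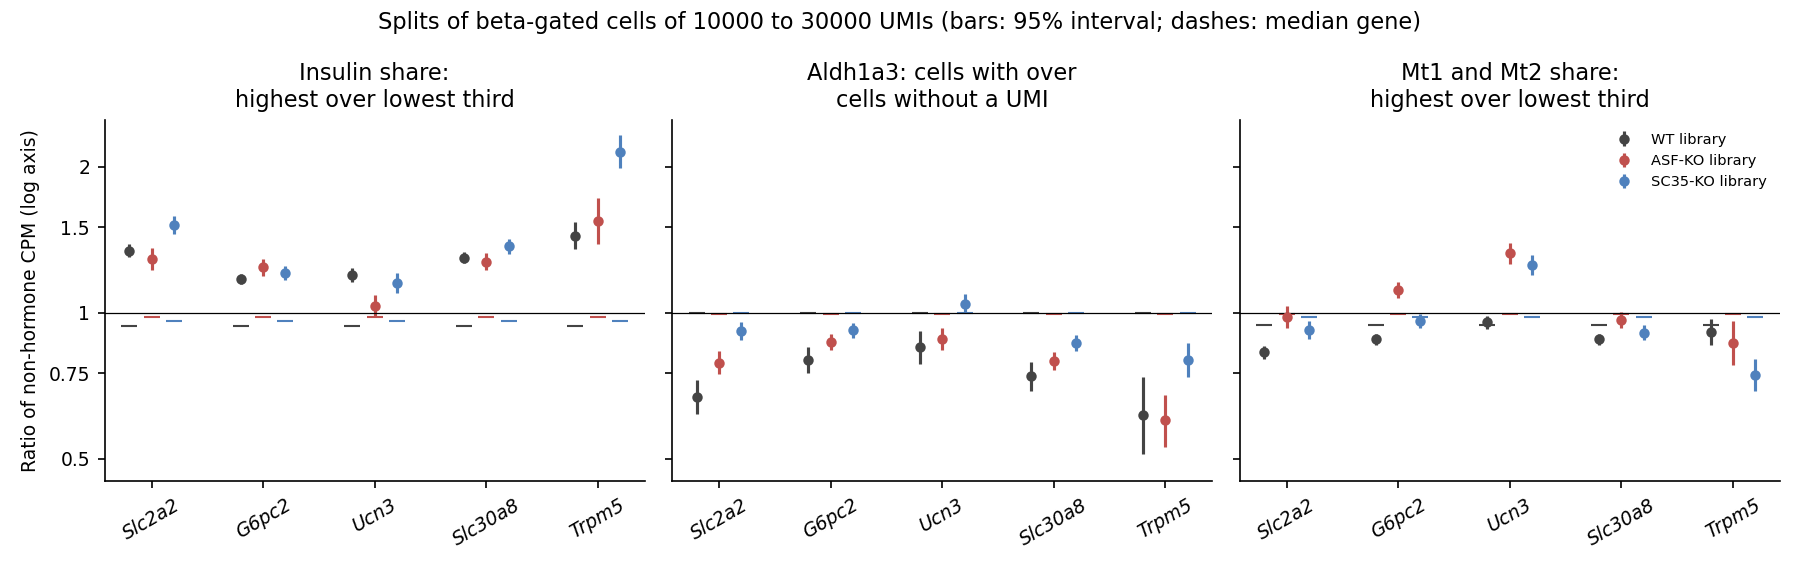
Ratio of non-hormone CPM (log axis) of each gene between beta-gated cells split by insulin share (left), by an Aldh1a3 UMI (middle) and by Mt1 and Mt2 share (right) in the WT, ASF-KO and SC35-KO libraries, with 95% counting intervals and dashes at the median gene. Trpm5 lies highest on the left, at up to 2.15, and lowest in the middle, and Ucn3 stands apart in the KO libraries on the right.

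The genes that work beside Slc2a2 and G6pc2 did not all move with them. Of 10 other hexose transporters only Slc2a5, the fructose transporter GLUT5, was measured, at 123 CPM in WT, 90.6 in the ASF-KO library and 96.7 in the SC35-KO library, which is 0.00 and 0.09 relative to the median gene (log2). Of 12 genes of glucose phosphorylation and return, 5 were measured, and 1 was lower by 1.5-fold in each KO library. Slc37a4, the transporter that brings glucose-6-phosphate to glucose-6-phosphatase, was the lower one in both, at 33.5 CPM in WT, 14.9 and 15.8 CPM in the KO libraries (-0.73 and -0.65). The glucose-6-phosphate isomerase Gpi1 was at -0.36 and -0.20, the ubiquitous glucose-6-phosphatase G6pc3 at 0.01 and 0.05 and the phosphofructokinase regulator Pfkfb2 at 0.25 and 0.33. G6pc2 and its transporter partner were thus both on the lower side in both KO libraries.

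Around Slc30a8, 13 of 25 genes of zinc transport and buffering were measured; 3 were lower and 2 higher in the ASF-KO library, and 2 lower and 0 higher in the SC35-KO library. Mt1 stood at 5742 CPM in WT, 153 in the ASF-KO library and 1803 in the SC35-KO library, and Mt2 at 1497, 27.2 and 338 CPM (as paralogs, how reads were split between them is uncertain). Slc30a1, which exports zinc from the cell, was at 21.2, 5.19 and 11.4 CPM. Slc39a7, which moves zinc out of the endoplasmic reticulum, stood at 37.1, 62.9 and 31.8 CPM (1.20 and 0.21). Slc39a13, a zinc transporter of the same family, was at 0.65 and 0.18 relative to the median gene. In CPM it was at 1.16 and 0.835 times WT. Slc30a5, a zinc transporter of the secretory pathway, was the highest of the list in the SC35-KO library, at 0.28. The list as a whole had a median of 0.04 in the ASF-KO library and 0.05 in the SC35-KO library, close to all measured genes; Slc30a8 lay at -0.39 and -0.35, and 3 of the 13 genes were lower than it in each comparison.

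Among ion channels of depolarisation, the genes beside Trpm5, 12 of 13 were measured; 2 were lower and 0 higher in the ASF-KO library, and 1 lower and 0 higher in the SC35-KO library. Cacna1d, a calcium channel of insulin release, stood at 129 CPM in WT, 47.4 in the ASF-KO library and 55.3 in the SC35-KO library, at 0.368 and 0.430 of WT. The KATP pore Kcnj11 was at 35.4, 16.6 and 18.6 CPM (-0.65 and -0.49), while its partner Abcc8 was at 248, 145 and 221 CPM (-0.33 and 0.27). Trpm4, the closest relative of Trpm5, was at 15.6, 9.10 and 14.9 CPM (-0.34 and 0.37). Trpm3, another channel of the family, was among the highest in both, at 0.42 and 0.31, as was the channel subunit Cacnb2 in the ASF-KO library, at 0.15. Trpm4 and Abcc8, like Trpm5, were lower relative to WT in the ASF-KO than in the SC35-KO library. Of 7 genes of the taste-cell pathway that opens Trpm5, only the calcium-release channel Itpr3 was measured, at 21.3, 10.9 and 9.52 CPM (-0.53 and -0.73).

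Of 8 genes of Ucn3 signalling, only the somatostatin receptor Sstr3 was measured in beta-gated cells, at 89.8 CPM in WT, 38.1 in the ASF-KO library and 39.6 in the SC35-KO library (-0.80 and -0.74). Crhr2, the urocortin 3 receptor, was found in delta-gated cells at 8.60 CPM in WT, 7.16 in the ASF-KO library and 6.004 in the SC35-KO library, and in beta-gated cells at no more than 0.08 CPM. No Crhr2 UMI was found in endothelial-gated cells of any library, and Ucn3 in delta-gated cells stood at 18.1, 11.7 and 12.7 CPM, not above its endothelial level.

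Among 21 other genes of beta maturity and identity, 19 were measured; 2 were lower and 2 higher in the ASF-KO library, with a list median of -0.02, and 1 was lower and 0 higher in the SC35-KO library, with a median of -0.09. The lowest in the ASF-KO library were the pioneer factor Foxa2 (86.9 CPM in WT, 41.6 CPM there, -0.62) and the gap-junction gene Gjd2 (135 and 66.0 CPM, -0.60). The highest there were the prohormone convertase Pcsk1 (127 and 230.4 CPM, 1.30) and the granule protein Chgb (522 and 663 CPM, 0.78). In the SC35-KO library the lowest were the granule protein Sytl4 (90.3 CPM in WT, 44.1 CPM there, -0.60) and the islet factor Pax6 (295 and 151 CPM, -0.53), and the highest Nkx2-2 (0.42) and Chgb (0.38). Mafa, whose motif core lies in the G6pc2 window, was at 237 CPM in WT, 219 in the ASF-KO library and 149.8 in the SC35-KO library (0.32 and -0.23). Beside these list medians near 0, the medians of the 5 genes were -0.45 and -0.41. The 5 genes and the lists were chosen with earlier results of these data known, so this contrast is a description only. Of 12 genes of immaturity or of dedifferentiation, 2 were measured in the ASF-KO and 3 in the SC35-KO comparison. Aldh1a3 was 8.70 times (7.57 to 10.0) and 7.65 times (6.64 to 8.86) its WT level, Serpina7 was 3.26 times WT in the SC35-KO library, and Cd81 was at -0.20 and 0.32. Apart from Aldh1a3 and Serpina7, the genes of this list were not measured as higher by the fold used.

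In alpha-gated cells Slc30a8 took the opposite side. Relative to the median gene of alpha-gated cells it was at 0.52 (0.47 to 0.57) in the ASF-KO library and 0.20 (0.15 to 0.25) in the SC35-KO library, against -0.39 and -0.35 in beta-gated cells. In CPM the alpha ratio was 1.47 in the ASF-KO library and 0.999 in the SC35-KO library. Its higher side in the SC35-KO library is thus seen only relative to the median gene. In gamma-gated cells Slc30a8 was at -0.23 (-0.57 to 0.11) and -0.39 (-0.69 to -0.09).

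Genes with the class pattern most like each of the 5 were sought by Pearson correlation of log2(CPM + 1) over 26 sums (12 classes, up to 3 libraries) among 12319 genes. The sums share libraries and depth, so the values only rank. For Slc2a2 the most alike were Nupr1 (0.909), Fam151a (0.882) and Atf5 (0.878), for G6pc2 Prss53 (0.955), Mafa (0.952) and Papss2 (0.951), and for Ucn3 Ins1 (0.952), Tmem215 (0.950) and Car10 (0.946). For Trpm5 they were Gad1 (0.911), Fam151a (0.908) and Sytl4 (0.907). For Slc30a8 they were Ddc (0.910), Slc7a2 (0.893) and Csmd2 (0.891). Between the 5 genes themselves the values ran from 0.804 to 0.957 without Slc30a8, and from 0.404 to 0.625 with it. Slc30a8, high in alpha cells, was the one whose class pattern stood apart.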

How the data were processed

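The deposited files of the 3 libraries hold whole-number UMI counts per gene and barcode, with no normalization by the authors, and were made with Cell Ranger 5.0.0, per the file headers; the submitters' processing notes also list mm10, STAR and Seurat, without a role. Barcodes under 500 genes or 1000 UMIs, or above 20% mitochondrial UMIs, were removed (978, 5095 and 2234), and 329, 278 and 902 doublets marked by Scrublet (scanpy 1.11.5) were left out. Cells were gated by hormone share and markers, with limits set after the hormone shares had been seen: alpha, delta and gamma cells needed at least 5% of UMIs from Gcg, Sst or Ppy, and a non-endocrine class needed 50% or more of the markers of 1 list. The gates left 11.3%, 10.1% and 11.3% of cells in no class. Counts were summed by class and library. Levels carry exact Poisson intervals, ratios exact conditional binomial intervals and shares exact Clopper-Pearson intervals, each at 95%. The ratio scripts were tested on simulated data. The 5 genes, the gene lists and the markers were chosen with earlier results of these data known. Named genes were the 5 genes, the 2 lowest and 2 highest measured genes of each list in each comparison with WT, and the 3 genes of most alike class pattern; Mafa, Abcc8 and Slc30a1 were added after their values were seen, and the genes shown beside cell classes (Krt19, Sox9, Ctrb1, Crhr2) come from marker and pathway lists. Alternatives changed the scaling, the minimum CPM, the cell filter, the doublet step, the beta gate and the thinning; those on exocrine-rich cells, on depth and on Aldh1a3 were chosen after seeing the data. Samples carry no replicate, so no replicate was left out. Start windows came from the RefSeq table given with the reference. 1 gene of the list on glucose phosphorylation and return is not reported here.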

Additional observations from a re-analysis of the deposited data

Results flagged for a closer look

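Slc30a8 lay on opposite sides of the median gene in different islet cells, with counting intervals that did not include 0. In the ASF-KO library the log2 difference between alpha-gated and beta-gated cells, alpha minus beta, was 0.91. In the SC35-KO library it was 0.54 for alpha minus beta and 0.58 for alpha minus gamma. Each value rests on 1 library per genotype, and the difference between cell classes was not tested.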

How the results depend on the processing

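The count of genes lower by 1.5-fold depended on the scale. Plain CPM is not corrected for the larger insulin share of the KO libraries, and the part of that share was not tested. On that scale the count was 5 in place of 2 for the ASF-KO library and 4 in place of 0 for the SC35-KO library. The median gene then stood at 0.738 and 0.739 of WT, and the share of all genes past the fold was not counted. For the ASF-KO library the count was 1 when genes from 1 CPM were counted as measured. The count was also 1 there without cells over 0.1% exocrine UMIs and in cells without an Aldh1a3 UMI, and 0 at a fold of 2. Trpm5, near the line, left the count in those 3 settings, and the cause was not tested. For each comparison, the share of all genes past the fold was counted in the main setting only. Trpm5 ran from -0.64 to -0.51 over 13 settings other than plain CPM, and Slc2a2 from -0.91 to -0.84, past 1.5-fold in all 13. Between the KO libraries 1 gene, Trpm5, was higher by 1.5-fold in place of 0 on totals without hormone and mitochondrial genes, with genes measured from 50 CPM, with the stricter beta gate and in cells of 10000 to 30000 UMIs. Over these 13 settings G6pc2, Ucn3, Slc30a8 and Slc2a2 stayed below the median gene in both comparisons with WT, and Trpm5 did so in 11 for the SC35-KO library. Of the levels by class, 1 of 130 moved by over 1.5 times with doublets kept and 3 of 105 with the stricter cell filter. No paired analysis was possible because each genotype has 1 library. Depth limits Trpm5 outside beta cells, where its intervals overlap.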

Other observations

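The 5 genes were also set against insulin in endothelial-gated and beta-gated cells. The source of these RNAs in endothelial-gated droplets was not tested. In the WT library endothelial-gated cells held more of 4 of the 5 genes per 10000 insulin UMIs than beta-gated cells did, by intervals that did not overlap: 10.1 against 6.93 for Slc2a2, 21.3 against 9.92 for G6pc2, 11.3 against 5.88 for Ucn3 and 15.99 against 8.69 for Slc30a8. For Trpm5 the value was 2.37 (1.22 to 4.14) against 1.52. In the ASF-KO library the endothelial value was 3.48 (2.33 to 4.996) against 2.33 for Slc2a2, 6.96 against 4.51 for G6pc2, 4.56 against 2.69 for Ucn3, 5.52 (4.04 to 7.36) against 4.12 for Slc30a8 and, on the other side, 0.360 (0.0742 to 1.05) against 0.625 for Trpm5. In the SC35-KO library it was 5.92 against 3.03 for Slc2a2, 6.69 (4.66 to 9.30) against 4.66 for G6pc2, 4.01 (2.48 to 6.13) against 2.51 for Ucn3, 9.36 against 4.28 for Slc30a8 and 0.382 (0.0463 to 1.38) against 0.931 for Trpm5.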
